A study of Mus musculus with 8 samples.

Results

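The genes of collagens, laminins and secreted matrix proteases were followed in murine peritoneal mast cells (PMCs). Members were chosen by name and by level. A gene entered when its symbol was that of a collagen chain (Col), a laminin chain (Lama, Lamb, Lamc), a member of the ADAMTS or ADAMTS-like family (Adamts, Adamtsl) or a matrix metalloproteinase (Mmp), and when it reached at least 1 CPM (counts per 1000000 reads) in any library. Of the 55359 genes listed, 102 had such a name, and 28 of them reached 1 CPM. This was 27.5% of the names, and 24.9% of all genes reached the same level. A further 63 names had at least 1 count but stayed below 1 CPM, and 11 had no count in any library. Because the level was read from the same libraries that are compared here, a member that reached 1 CPM in only 1 kind of culture had to differ between them. Of the 28 members, 15 reached it in a line and in a primary culture, 7 only in a line and 6 only in a primary culture.

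The 8 libraries were made from stranded total RNA. They comprised 1 library each of the lines PMC-303 and PMC-306, and 6 of primary wild-type (WT) PMC cultures, 3 from female and 3 from male mice. The karyotype that the paper reports for PMC-306 is male, and its text does not give the sex of PMC-303. All cultures were untreated and came from mice of the mixed strain C57BL/6x129/Sv, and only the primary cultures are labelled wild-type. The ages of the mice are not given in the sources used here. The lines arose from wild-type PMCs but are not genetically unchanged. The paper reports chromosome changes in both lines, different in each, and loss of Cdkn2a and Arf expression in both. Each line is a single culture that transformed spontaneously from primary PMCs during long culture, and the lines were kept in medium with less serum and less stem cell factor than the primary cultures, so that line and medium cannot be told apart. The paper also grew PMC-306 in medium like that of primary cultures. It reports unchanged mRNA of Cdkn2a, Arf, mast cell proteases and Mrgprb2, and less KIT on the surface. The genes followed here are not among those it reports for that comparison. The labels call the primary libraries biological replicates.

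Laminins are cross-shaped trimers of 1 alpha, 1 beta and 1 gamma chain and form the sheet of basement membranes. Collagens are trimers of chains wound in a triple helix; collagens I and III form fibrils, collagen IV forms the network of basement membranes, and collagens XV and XVIII carry heparan or chondroitin sulfate chains beside them. ADAMTS enzymes are secreted metalloproteinases that trim procollagens and proteoglycans, the ADAMTS-like proteins resemble them without the catalytic domain, and MMPs degrade matrix proteins. Mast cells are better known for granule proteases than for matrix secretion, and in tissue they lie next to matrix made mainly by fibroblasts.

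Total counts were 15918758 to 24180226 per library, so that 3 counts, the limit used for a gene without counts, corresponded to 0.123 to 0.187 CPM. This limit covers counting error only. The mast cell genes Kit, Fcer1a, Ms4a2, Cpa3, Cma1, Gata2 and Mitf were at 199.8 CPM or more in every library, and Hdc, which makes histamine, was at 6.19 to 42.4 CPM. Of these 8 genes 0 were higher and 2 lower in the lines at a limma adjusted p below 0.05. Over all genes tested the shares were 18.3% and 15.5%. The 2 genes were Kit (3674 ± 201 CPM in primary cultures, 1946 in PMC-303, 2055 in PMC-306, adjusted p = 0.00089) and Fcer1a (4683 ± 526, 2480 and 1323 CPM, adjusted p = 0.0031). Of 8 fibroblast markers 6 stayed below 1 CPM, and the list summed to 0.132 to 0.766 CPM in primary cultures, 3.29 CPM in PMC-303 and 1.96 in PMC-306, mainly from Pdgfrb in PMC-303 (2.39 CPM) and Pi16 in PMC-306 (1.52 CPM). Mesothelial markers summed to at most 0.262 CPM, smooth muscle markers to at most 0.196 CPM, B cell markers to at most 0.211 CPM and neutrophil markers to at most 0.0527 CPM. Among endothelial markers Cdh5, Kdr and Emcn were at or near 0, while Pecam1, which mast cells also carry, was at 297.4 to 446.02 CPM and Tek reached 6.59 CPM. The macrophage list was uneven: Csf1r, C1qa, C1qb, C1qc and Cd14 were at 0.255 CPM or less in every library, but Adgre1 (F4/80) was at 426 CPM in PMC-306, 46.4 CPM in female 2 and 25.3 CPM in male 3 against 2.10 to 4.35 CPM in the other 5 libraries.

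**Figure D1:**
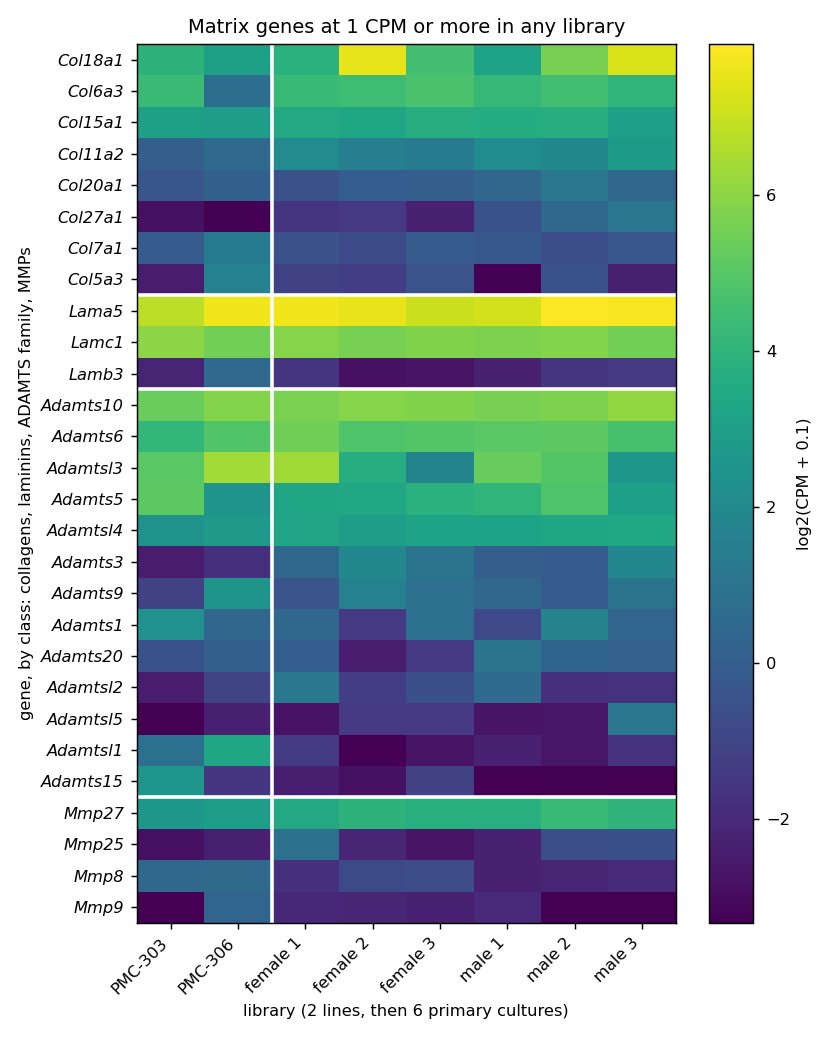
Level of each of the 28 members as log2(CPM + 0.1), by library. Columns are the 2 lines and 6 primary cultures, rows are genes ordered within collagens, laminins, the ADAMTS family and MMPs by their mean in primary cultures. Lama5, Lamc1, Adamts10 and Adamts6 were at high level in all libraries, whereas the rows of Col18a1 and Adamtsl3 changed colour among primary cultures.

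The laminin genes were reduced to a pair of chains. Lama5, the alpha 5 chain of basement membranes (ENSMUSG00000015647, chr2:179818166-179867712, minus strand, GRCm39), was at 112 CPM in PMC-303 and 208 in PMC-306. In primary cultures it was at 208 CPM in female 1, 189 CPM in female 2, 132 CPM in female 3, 141 CPM in male 1, 244 CPM in male 2 and 216 CPM in male 3. PMC-303 lay below all primary cultures and PMC-306 within their range. Lamc1, the gamma 1 chain (ENSMUSG00000026478, chr1:153094597-153208774, minus strand), was steadier, at 62.9 CPM in PMC-303, 46.0 in PMC-306 and 53.6 ± 4.11 CPM in primary cultures (SD, n = 6; lowest 48.4, highest 58.4). PMC-303 was above and PMC-306 below every primary culture, each by a small margin. Neither gene passed the test between lines and primary cultures. The log2 difference was -0.27 (SE 0.29, limma adjusted p = 0.51) for Lama5 and 0.01 (SE 0.13, adjusted p = 0.97) for Lamc1. In these bulk libraries fewer cells of a kind and less RNA per cell cannot be told apart.

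No beta chain accompanied them at a like level. On the length-scaled TPM scale (transcripts per 1000000) Lama5 was at 17.6 ± 4.02 and Lamc1 at 9.44 ± 2.35 in primary cultures (SD, n = 6). Lamb1, the usual beta 1 partner, had no count in any of the 8 libraries. Lamb2 had 1 to 6 counts and at most 0.124 TPM, and Lamb3 had 1 to 27 counts and at most 0.459 TPM. This highest TPM of Lamb3 was in PMC-303 on 3 counts, while PMC-306 had 27 counts and 0.391 TPM. Lamb3 reached 1 CPM in PMC-306 alone, at 1.33 CPM with 27 counts, against 0.123 CPM in PMC-303 and 0.0439 to 0.262 CPM in primary cultures. The other alpha chains Lama1 to Lama4 had 0 to 2 counts per library, and so did the gamma chain Lamc3. Reads of Lama5 lay almost wholly on protein-coding transcripts, with 98.6% in PMC-303, 99.2% in PMC-306 and at least 99.3% in primary cultures. Its exons overlap those of Adrm1 on the opposite strand, at up to 54 CPM, and whether counting used the strand is not given in the sources used here.

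**Figure D2:**
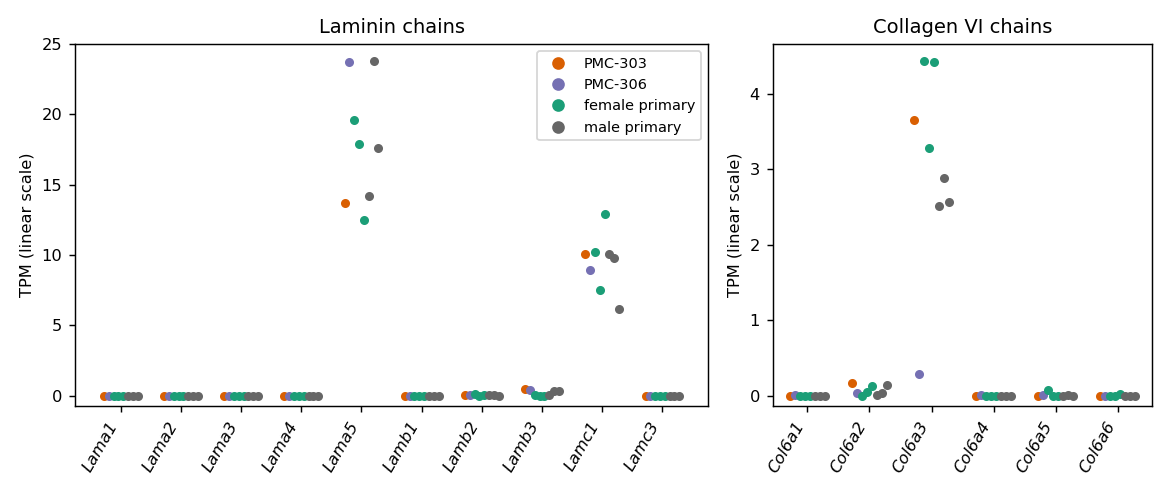
Level of laminin chains (left) and collagen VI chains (right) in TPM on a linear axis, 1 point per library. Lama5 and Lamc1 stood above 5 TPM in every library while all beta chains stayed below 0.5 TPM; Col6a3 stood above 2.5 TPM in 7 libraries and at 0.289 TPM in PMC-306, with the other collagen VI chains near 0.

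Collagen VI likewise appeared as a single chain. Col6a3, the alpha 3 chain (ENSMUSG00000048126, chr1:90693645-90771780, minus strand), was at 19.96 CPM in PMC-303 but 1.57 CPM in PMC-306. Primary cultures held 19.8 CPM in female 1, 21.6 CPM in female 2, 26.2 CPM in female 3, 18.04 CPM in male 1, 23.2 CPM in male 2 and 16.5 CPM in male 3. PMC-303 was inside the primary range and PMC-306 below it. Between the lines the counts were 485 and 32, a ratio of 12.7 (95% exact interval 8.88 to 18.8, counting error only). The lines together did not pass the test against primary cultures (log2 difference -1.84, SE 0.73, limma adjusted p = 0.085). With PMC-303 left out the log2 difference was -3.63 and the adjusted p 0.000181, which rests on PMC-306 alone with its spread taken from the primary cultures. Collagen VI is assembled from alpha 1, alpha 2 and a further chain. Col6a1 had 1 count in all 8 libraries together, Col6a2 had 0 to 15 counts per library and at most 0.682 CPM, and Col6a4, Col6a5 and Col6a6 had 0 to 3.

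Col18a1, which encodes collagen XVIII, the precursor of endostatin, varied widely among primary cultures. It was at 14.4 CPM in female 1, 181 CPM in female 2, 23.5 CPM in female 3, 9.09 CPM in male 1, 49.3 CPM in male 2 and 156 CPM in male 3. Female 2 and male 3 stood far above the other 4 primary cultures, 1 in each sex. The lines were at 15.6 CPM in PMC-303 and 8.35 in PMC-306, the first inside the primary range and the second below it. The highest primary culture exceeded the lowest by 19.9-fold, and 98.2% of the 12504 genes with a primary mean of at least 1 CPM had a smaller ratio. The difference between lines and primary cultures was -1.81 on the log2 scale (SE 1.13, limma adjusted p = 0.25).

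The cultures with high Col18a1 also had the highest sums of macrophage markers among primary cultures, 68.8 CPM in female 2 and 33.1 CPM in male 3 against 7.44 to 23.6 CPM in the others, carried by Adgre1 and Lyz2 (18.0 and 5.72 CPM against 1.18 to 2.35 CPM). Cd68, on the same list, did not follow them. It was at 4.22 CPM in female 2 and 1.94 CPM in male 3, within the 1.48 to 17.8 CPM of the other primary cultures. The highest of these was male 2, and PMC-306 was at 13.9 CPM. The defining genes Csf1r, C1qa, C1qb, C1qc and Cd14 were at or near 0 in both, and PMC-306, with 426 CPM of Adgre1, had the lowest Col18a1 of all libraries. The part of these markers in the Col18a1 values was not tested. Exons of Col18a1 overlap those of Slc19a1 on the opposite strand, which was at up to 7.55 CPM.

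Nearly all Col18a1 counts were assigned to the transcript with the upstream first exon (Col18a1-202, first base 77002390 on chromosome 10, minus strand). It held all of the counts in 6 libraries, 96.5% in female 2 and 96.8% in male 3. Transcript Col18a1-203, which starts inside the gene at 76949539, received 135 counts in female 2 and 92.9 counts in male 3 and none elsewhere. The upstream region is printed because nearly all counts of both lines and all primary cultures were assigned to this start. The sequence is from RefSeq, located by an exact match in GRCm39 at chr10:77002391-77002614, and is given on the minus strand, 5′ to 3′, up to the last base before the annotated first exon. Capitals mark CpG dinucleotides.
Col18a1 upstream start: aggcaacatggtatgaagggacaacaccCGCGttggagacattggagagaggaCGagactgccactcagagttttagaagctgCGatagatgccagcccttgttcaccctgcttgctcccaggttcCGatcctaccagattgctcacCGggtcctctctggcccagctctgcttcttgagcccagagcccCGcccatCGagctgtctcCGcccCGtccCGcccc
The 224 bases hold 11 CpG and are 60.3% G or C. Over the 250 bases before the RefSeq start the count was 12 CpG, more than in 66.5% of 32851 promoters of the same length (median 6). None of the GATA motifs AGATAA and TGATAA or the E-boxes CACGTG and CATGTG, searched on both strands, lay in those bases. Of all promoters 9.99%, 7.94%, 6.02% and 12.3% held them. Of 23 promoters belonging to 21 members, AGATAA was found in 2, CATGTG in 1 and the other motifs in 0.

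Among the remaining collagens Col15a1, a close relative of collagen XVIII, was close to even among libraries. It was at 8.40 CPM in PMC-303, 7.51 in PMC-306 and 11.2 ± 1.84 CPM in primary cultures (lowest 8.18, highest 12.9). The log2 difference was -0.48 (SE 0.19, limma adjusted p = 0.080), and it passed the threshold only when male 3 was left out (adjusted p = 0.020). Col11a2, a chain of collagen XI, fell in the lines. It was at 0.947 CPM in PMC-303 and 1.33 in PMC-306, and in primary cultures at 4.18, 2.77 and 2.37 CPM in female 1 to 3 and 4.39, 3.73 and 6.87 CPM in male 1 to 3. Both lines were below all primary cultures. Its log2 difference was -1.68 (SE 0.37, limma adjusted p = 0.0093), and the call was lost without PMC-303 (adjusted p = 0.069). Its partner chains Col11a1 and Col2a1 had 0 to 2 counts per library.

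Col5a3, the alpha 3 chain of collagen V, reached 3.09 CPM with 63 counts in PMC-306 against 2 counts in PMC-303 and 0 to 0.633 CPM in primary cultures. The line ratio was 37.6 (95% exact interval 9.98 to 317.1). Col5a1 had 2 counts over all libraries and Col5a2 none. Col7a1, the anchoring fibril collagen, was at 2.31 CPM in PMC-306, 0.864 in PMC-303 and 0.483 to 0.844 CPM in primary cultures (limma adjusted p = 0.074). Col27a1 was at 0.0412 CPM in PMC-303, with 1 count, and had no count in PMC-306, which places it at least 5.16-fold below the primary mean of 0.76 CPM when 3 counts are taken as the limit. Col20a1 was at 0.60 to 2.11 CPM throughout, but shares exon sequence with 9230112E08Rik on the same strand, and its counts are uncertain.

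The collagens that fibroblasts and basement membranes are known for were at the detection limit. Col1a1 and Col1a2 had 0 to 2 counts per library, Col3a1 1 count in all, Col4a1 none and Col4a2 1. Of 44 collagen genes 8 reached 1 CPM, 33 had fewer counts and 3 had none. The names closest to the level limit from below were Col25a1 (0.786 CPM in its highest library), Col6a2 (0.682 CPM) and Col9a3 (0.497 CPM), and those closest from above were Mmp9 (1.18 CPM), Lamb3 (1.33 CPM) and Mmp8 (1.37 CPM).

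The ADAMTS family supplied the most members, 13 of its 24 names, including all 5 ADAMTS-like genes. Adamts10, a protease that binds fibrillin microfibrils (ENSMUSG00000024299, chr17:33742987-33772758, plus strand), was at 41.4 CPM in PMC-303, 56.7 in PMC-306 and 55.9 ± 7.52 CPM in primary cultures. Most of these counts lay on transcripts that are not annotated as coding. Coding transcripts took 37.2% in PMC-303, 28.9% in PMC-306 and 19.8% to 29.2% in primary cultures. Adamts6, its closest relative, was at 17.6 CPM in PMC-303, 29.5 in PMC-306 and 32.5 ± 6.73 CPM in primary cultures, with 22.6% to 34.9% of primary counts on coding transcripts. Neither passed the test between lines and primary cultures (log2 difference -0.20, SE 0.16, limma adjusted p = 0.36 for Adamts10 and -0.49, SE 0.24, adjusted p = 0.15 for Adamts6). For Adamts6 the adjusted p was 0.047 when PMC-306 was left out.

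Adamtsl3 had the widest spread of the abundant ADAMTS-like genes among primary cultures. It was at 79.05 CPM in female 1, 12.6 CPM in female 2, 3.32 CPM in female 3, 39.7 CPM in male 1, 29.9 CPM in male 2 and 6.03 CPM in male 3. The highest exceeded the lowest by 23.8-fold. PMC-303, at 33.5 CPM, fell inside that range, and PMC-306, at 82.8 CPM, just above it. The log2 difference between lines and primary cultures was 1.62 (SE 1.11, limma adjusted p = 0.29). Adamts1, a proteoglycan-cleaving enzyme, also had a primary mean of at least 1 CPM and a range over 10-fold, from 0.264 to 3.17 CPM, with 5.15 CPM in PMC-303 and 1.23 in PMC-306. Thus 3 of 16 such members had a 10-fold range, while 2.97% of all 12504 genes at that mean did.

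**Figure D3:**
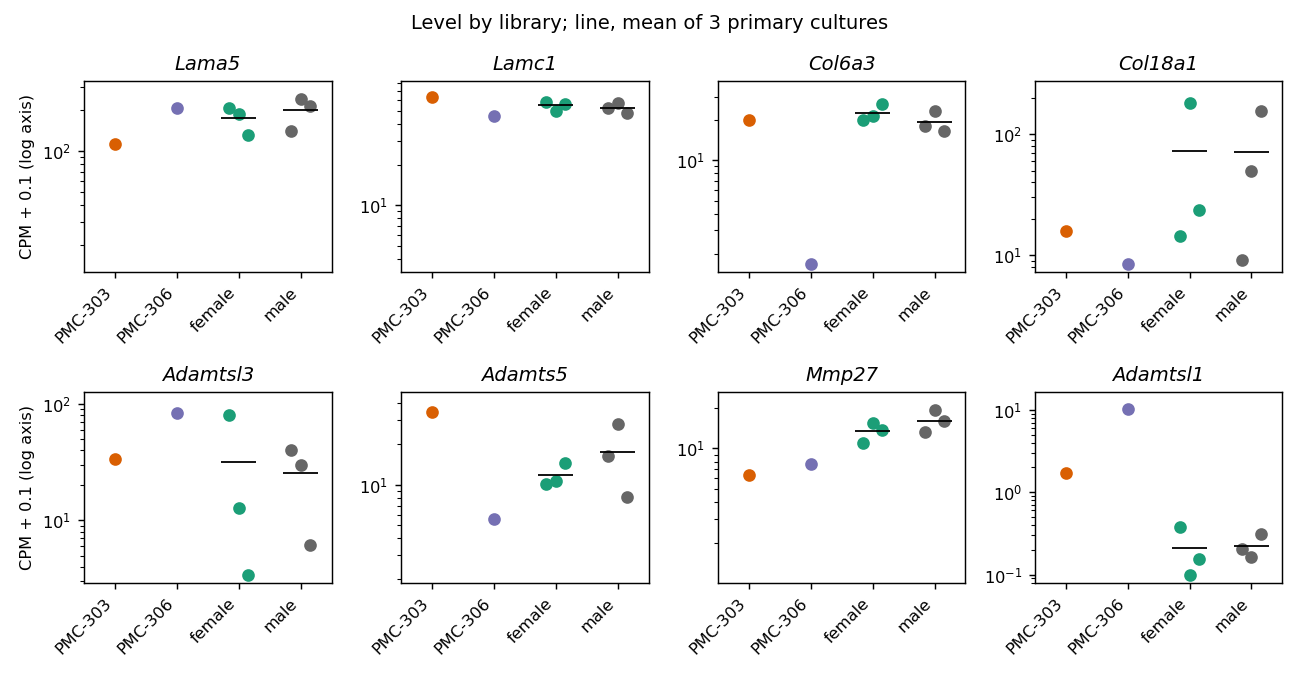
CPM + 0.1 on a log axis for 8 members, 1 point per library and a line at the mean of the 3 female or 3 male primary cultures. Col18a1 ran from 9.09 to 181 CPM and Adamtsl3 from 3.32 to 79.05 CPM among primary cultures, both lines lay below all primary cultures for Mmp27 and above them for Adamtsl1, and PMC-306 alone was low for Col6a3.

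Adamts5, the main aggrecan-cleaving enzyme, moved apart in the lines. It was at 34.2 CPM in PMC-303 and 5.50 in PMC-306. Primary cultures were at 10.01, 10.5 and 14.3 CPM in female 1 to 3 and 16.3, 28.2 and 7.97 CPM in male 1 to 3. PMC-303 was above and PMC-306 below all of them, with 831 and 112 counts and a line ratio of 6.22 (95% exact interval 5.10 to 7.65). The lines pooled gave a log2 difference of 0.05 (SE 0.66, limma adjusted p = 0.96). Adamts9 showed the opposite order, with 0.37 CPM in PMC-303, 5.65 in PMC-306 and 0.689 to 2.99 CPM in primary cultures, and PMC-306 exceeded PMC-303 by 15.2-fold (95% exact interval 7.76 to 34.2). Adamts15, another proteoglycan-cleaving enzyme, was at 5.93 CPM with 144 counts in PMC-303, 0.246 CPM in PMC-306 and 0 to 0.369 CPM in primary cultures. Its line ratio was 24.1 (95% exact interval 10.1 to 75.5).

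Adamtsl1, a secreted protein also called punctin (ENSMUSG00000066113, chr4:85432409-86346622, plus strand), rose in both lines. It was at 1.61 CPM in PMC-303 and 10.02 in PMC-306, against 0.276 CPM in female 1, 0 in female 2, 0.0527 CPM in female 3, 0.102 CPM in male 1, 0.0622 CPM in male 2 and 0.21 CPM in male 3. The fitted log2 difference was 4.40 (SE 0.73, limma adjusted p = 0.0025). The paper reports a heterozygous deletion within this chromosome in PMC-306 and no abnormality of it in PMC-303. Whether the deletion includes or adjoins Adamtsl1, and its part in these values, was not tested. Adamts3, a procollagen N-proteinase, fell. PMC-303 had 2 counts and PMC-306 had 4, while primary cultures were at 1.24, 3.73 and 1.90 CPM in female 1 to 3 and 0.97, 0.87 and 3.62 CPM in male 1 to 3. Its log2 difference was -2.99 (SE 0.60, limma adjusted p = 0.0062), and its highest primary values were again in female 2 and male 3. The call was lost with limma's precision weights (adjusted p = 0.060) and against male cultures alone (adjusted p = 0.0503). Adamtsl4, a fibrillin-binding protein, fell by a smaller amount, from 9.25 ± 0.972 CPM in primary cultures (lowest 7.51, highest 10.2) to 5.23 CPM in PMC-303 and 6.48 in PMC-306. The log2 difference was -0.65 (SE 0.15, limma adjusted p = 0.012), and the adjusted p was 0.091 without PMC-303. Adamtsl1 and Adamts3 reached 1 CPM on 1 side only.

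Of 23 MMP names 4 reached 1 CPM. Mmp27, a little studied family member (ENSMUSG00000070323, chr9:7571397-7581891, plus strand), was the only one above 2 CPM. It was at 6.22 CPM in PMC-303 and 7.51 in PMC-306, and in primary cultures at 10.9, 15.3 and 13.5 CPM in female 1 to 3 and 13.03, 19.03 and 15.8 CPM in male 1 to 3. Both lines were below all primary cultures. The log2 difference was -1.06 (SE 0.20, limma adjusted p = 0.0043). Mmp8, neutrophil collagenase, rose from 0.102 to 0.527 CPM in primary cultures to 1.23 CPM in PMC-303 and 1.37 in PMC-306 (log2 difference 2.10, SE 0.53, limma adjusted p = 0.015), with 30 and 28 counts in the lines. The adjusted p of Mmp8 was 0.061 without PMC-303 and 0.081 without PMC-306, and it reached 1 CPM only in the lines. Neutrophil markers were at 0 in both. Mmp9, gelatinase B, had 24 counts in PMC-306 (1.18 CPM), none in PMC-303 and at most 0.153 CPM in primary cultures. Mmp25, a membrane-anchored enzyme of leukocytes, reached 1 CPM only in female 1, at 1.65 CPM. Mmp2, Mmp3, Mmp13 and Mmp14 did not reach 1 CPM in any library.

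Across the fit of lines against primary cultures 14525 genes were tested, among them 24 of the 28 members; Adamts15, Adamtsl5, Lamb3 and Mmp9 had too few counts. Adamtsl1 and Mmp8 were called higher at an adjusted p below 0.05, 2 of 24, beside 18.3% of all genes tested. Adamts3, Adamtsl4, Col11a2 and Mmp27 were called lower, 4 of 24, beside 15.5% of all genes. The remaining 18 were not called. The split over all genes moved with the scaling, from 2659 higher and 2254 lower to 3406 and 1665 with plain library totals and 2371 and 983 on deposited TPM, and the 6 members called were the same with plain totals, while on TPM Adamtsl4 and Col11a2 were lost. The median log2 difference was -0.30 over the members and -0.01 over all genes tested. Of the 15 members that reached 1 CPM on both sides 0 were called higher, beside 19.9% of the 12382 genes of that kind tested, and 3 were called lower, Col11a2, Adamtsl4 and Mmp27, beside 15.3%.

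Each line was also set against the mean of the 6 primary cultures by the ratio of CPM + 0.1, with no test since a line has 1 library. PMC-303 was at least 5-fold higher for 2 members, Adamts15 and Adamtsl1, beside 3.72% of the 13802 genes at 1 CPM or more in any library, and 5-fold lower or more on this scale for 4, Adamts3, Adamtsl2, Adamtsl5 and Col27a1, beside 3.6% of genes. These 4 had 0 to 2 counts in PMC-303, so that their ratios depend on the offset. Adamtsl5 had none, which with 3 counts as the limit shows only that it was at least 3.83-fold below a primary mean of 0.473 CPM, itself resting on male 3 (2.15 CPM against at most 0.264 CPM in the others). PMC-306 was at least 5-fold higher for 4 members, Adamtsl1, Col5a3, Mmp9 and Lamb3, beside 3.76% of genes, and at least 5-fold lower for 4, Col6a3, Col18a1, Col27a1 and Adamts3, beside 4.21% of genes. The largest folds were 46.6 for Adamtsl1 in PMC-306 and 32.7 for Adamts15 in PMC-303. Adamtsl1, Adamts3 and Col27a1 were the members 5-fold away in both lines. No member was 5-fold away in opposite directions. The lines lay on opposite sides of all primary cultures for 3 members, Adamts5, Adamts9 and Lamc1, beside 4.49% of the 13802 genes. With an offset of 1 CPM in place of 0.1 the members 5-fold away in either direction fell from 6 to 1 in PMC-303 and from 8 to 3 in PMC-306.

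**Figure D4:**
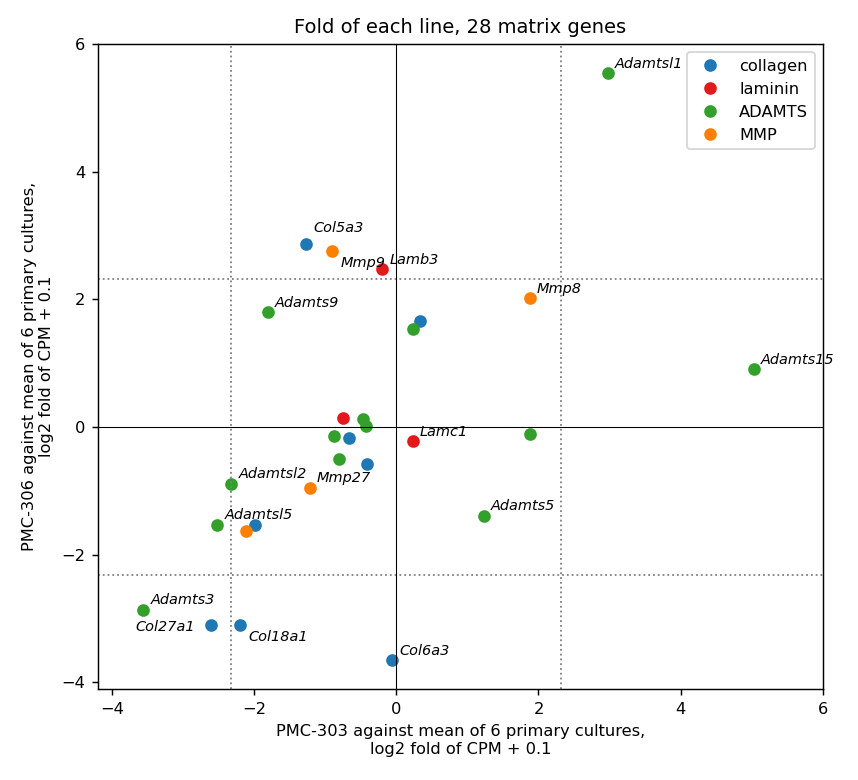
log2 fold of CPM + 0.1 of PMC-303 (x axis) and PMC-306 (y axis) against the mean of the 6 primary cultures, 1 point per member, coloured by class; dotted lines mark 5-fold. Adamtsl1 lay beyond 5-fold upward and Adamts3 and Col27a1 downward in both lines, Adamts15 was high in PMC-303 only, and Col6a3 was low in PMC-306 only.

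Female and male primary cultures were compared in the same way. In 13693 genes tested 6 were called, 0.0438% of genes, and 0 of the 21 members tested. At an unadjusted p below 0.05 there were 2 members, Col27a1 and Adamts20, and 457 genes in all (3.34%). Limma with precision weights also called 0 members. Col27a1 was at 0.23, 0.264 and 0.105 CPM in female 1 to 3 and 0.613, 1.31 and 2.05 CPM in male 1 to 3. Its adjusted p in the limma fit was 1.00. Because both genes were picked by their unadjusted p, a gap between the sexes in their values is no further evidence. Adamts20 was at 0.0879 to 0.919 CPM in female and 1.05 to 1.89 CPM in male cultures.

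The enzymes that modify, fold and export collagen chains were present in part. Of 30 listed genes 17 were tested, of which 3 were called higher and 1 lower, beside 18.3% and 15.5% of all genes tested. The highest were the prolyl 4-hydroxylase subunits P4hb (437 ± 30.5 CPM in primary cultures, 492 in PMC-303, 521 in PMC-306) and P4ha1 (296 ± 48.0, 320 and 298 CPM), the proline isomerase Ppib (188 ± 14.6, 215 and 233 CPM) and the export receptor Mia3 (120 ± 9.65, 136 and 126 CPM), none of which was called. P4hb also serves as a general disulfide isomerase. Lysyl hydroxylase Plod2 rose (log2 difference 1.16, SE 0.35, limma adjusted p = 0.034), from 3.26 to 6.85 CPM in primary cultures to 7.24 CPM in PMC-303 and 16.8 in PMC-306, as did the collagen galactosyltransferase Colgalt1 (log2 difference 0.30, SE 0.10, limma adjusted p = 0.043). The other gene called higher, Pcolce, stayed below 1 CPM. The prolyl 3-hydroxylase P3h3 fell, from 17.3 ± 2.31 CPM to 3.58 CPM in PMC-303 and 2.90 in PMC-306 (log2 difference -2.38, SE 0.17, limma adjusted p = 7.3e-05). Serpinh1, the collagen chaperone HSP47, and the crosslinking enzyme Lox, picked out after their values were seen, were at 0.0525 CPM or less and at 0 in every library.

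Of 16 genes that inhibit or activate matrix proteases 10 stayed below 1 CPM and 7 were tested, with 0 called higher and 1 lower, beside the same 18.3% and 15.5%. Furin, the convertase that removes the propeptides of ADAMTS enzymes, fell from 1528 ± 123 CPM to 955 CPM in PMC-303 and 826 in PMC-306 (log2 difference -0.78, SE 0.11, limma adjusted p = 0.0012). Plau (240.0 ± 52.9, 134 and 186 CPM), Bsg (153 ± 21.5, 224 and 176 CPM) and Plaur (5.57 ± 2.54, 8.36 and 7.66 CPM), a plasminogen activator, an MMP inducer and the receptor of the former, were not called. The tissue inhibitors Timp1, Timp3 and Timp4 were at 0.105 CPM or less in every library. Timp2, named after its values were seen, was at 12.4 CPM in male 3 and 0.329 to 2.49 CPM elsewhere.

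Of 18 other matrix and basement membrane genes 12 stayed below 1 CPM and 6 were tested, with 0 called higher and 1 lower, beside 18.3% and 15.5% of all genes. Fibrillin 1 (Fbn1), the microfibril protein, fell from 64.8 ± 18.01 CPM to 30.4 CPM in PMC-303 and 15.5 in PMC-306 (log2 difference -1.52, SE 0.35, limma adjusted p = 0.011). Versican (Vcan) was at 65.0 ± 35.8 CPM in primary cultures, 51.04 CPM in PMC-303 and 21.9 in PMC-306, and perlecan (Hspg2) at 1.65 ± 0.416, 6.42 and 1.87 CPM, without a call. Agrin (Agrn) was at 1.45 ± 0.703, 2.59 and 1.13 CPM. Of 16 receptors of collagen and laminin 10 were tested, with 0 called higher and 1 lower, beside 18.3% and 15.5% of all genes. Lair1, an inhibitory collagen receptor of leukocytes, fell from 122 ± 13.96 CPM to 24.6 CPM in PMC-303 and 47.8 in PMC-306 (log2 difference -1.82, SE 0.22, limma adjusted p = 0.00053). The integrin chain Itgb1 (202 ± 11.6, 242 and 151 CPM) and Cd44 (118 ± 15.7, 112 and 119 CPM) were not called. Itga6, the laminin-binding alpha 6 integrin, was at 19.2 CPM in PMC-303 against 91.6 CPM in PMC-306 and 59.5 to 137 CPM in primary cultures (limma adjusted p = 0.12).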

How the data were processed

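RNA of 8 untreated PMC cultures was sequenced by the authors, and samples were grouped by line, sex and replicate number from the labels. Per the labels and the study's methods the authors trimmed reads with Trim Galore 0.6.7, aligned them to GRCm39 with STAR 2.7.9a and used Salmon 1.5.2 for quantification. Estimated counts and TPM, for genes and for transcripts, were deposited by the authors; the annotation release and the strand setting are not given in the sources used here. Every column was assigned to a sample. A spreadsheet program had rewritten cells of the deposited tables (3.37% of gene counts, 3.22% of transcript counts and 21.8% of gene TPM), which were restored to their numbers. Of the members' 816 count cells 7 were affected. After restoration 99.7% of genes matched the summed transcripts to 0.2 counts or less. In 5316 TPM cells the decimal place was set from the count of the same cell, and TPM there depends on the counts; the TPM columns add up to between 1000100 and 1001145. The altered tables were not treated as count tables, and a test on the log scale was used instead of a count model.

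CPM were computed from trimmed-mean (TMM) library sizes. Genes with a count of about 10 in at least 2 libraries (lines against primary) or 3 libraries (sex) and 15 in total were tested on log2(CPM + 0.1) with limma 3.58.1 in R 4.3.3, using its trend of variance on mean level, and p-values were adjusted by Benjamini-Hochberg over all genes tested; log2 differences of low genes are understated by the offset. The 2 lines served as replicates of each other. With a line left out, a count at the filter level in 1 library was enough for a gene to be tested. Adjusted p below 0.05 was called. Fold and interval of 1 line against the other come from the counts with an exact (Clopper-Pearson) interval, which covers counting error only. The procedure was also run on simulated counts with the same planted change in every library of a group. That setting does not cover genes on which the 2 lines differ. Genes named were the 5 members of highest mean CPM in each class, members called, the 3 nearest the 1 CPM limit on either side, and from each list the 4 highest genes and up to 2 called in each direction at a mean of 2 CPM or more; other genes named are examples chosen with their values seen. Values of 1 member below 1 CPM are not reported here. Members and lists were chosen with earlier results of these data known. Positions, transcript types and overlaps were taken from GENCODE M39 (GRCm39), in which all 102 member IDs were found, and the promoter from RefSeq (GRCm38.p6 table, placed in GRCm39 by exact match). Alternatives were other scalings, offsets, no filter, deposited TPM, limma with precision weights (voom), each library left out, and primary cultures of 1 sex alone.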

Additional observations from a re-analysis of the deposited data

Results flagged for a closer look

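Among the 6 primary cultures 3 of the 28 members had a culture standing apart from the rest. Its gap to its neighbour was above 0.625 of the whole range. About 1 in 20 sets does so by chance when values are normally distributed and sets are not chosen by level. The gaps were taken on untransformed CPM, for which that rate may not hold. Adamtsl5 and Mmp25 reached 1 CPM only in the culture that stood apart, so that rate does not apply to them. Adamtsl5 was at 2.15 CPM in male 3 and at most 0.264 CPM in the other 5. In male 3, 64.2% of the Adamtsl5 counts were assigned to a retained-intron transcript that is not annotated as coding and had no count elsewhere. Mmp25 was at 1.65 CPM in female 1 and at most 0.577 CPM in the others. Adamts15 was at 0.369 CPM in female 3 and at most 0.0919 CPM in the others, low values where 3 counts in female 3 correspond to 0.158 CPM.

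For 3 members the lines lay on opposite sides of all primary cultures, which was not tested, as each line has 1 library; 4.49% of the 13802 genes at 1 CPM or more showed the same. On the log2 scale of CPM + 0.1 Adamts5 was 1.23 in PMC-303 and -1.39 in PMC-306 relative to the primary mean, Adamts9 -1.81 and 1.80, and Lamc1 0.23 and -0.22.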

How the results depend on the processing

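The same 6 members were called, Adamtsl1 and Mmp8 higher and Adamts3, Adamtsl4, Col11a2 and Mmp27 lower, with median-of-ratios scaling, plain library totals, offsets of 0.5 and 1 CPM and no filter on low counts. Members called higher were 1 against female cultures alone and 2 with each primary culture left out. With a line left out, the other line was 1 library, and a count in that library alone let a gene be tested. Lamb3 and Mmp9, not tested in the main fit, entered that way through PMC-306 (27 and 24 counts). Adamts15, also not tested in the main fit, entered through PMC-303 (144 counts). These fits are no separate evidence that the genes were higher in a line. Members called lower were 2 on deposited TPM, 2 against female cultures alone and 3 to 5 with each library left out. Adamtsl1 and Mmp27 were called under every alternative run. Over all genes, 1326 were called higher and 832 lower against female cultures alone, against 2659 and 2254 with all libraries; 1241 were called lower against male cultures alone and 983 on deposited TPM, and with each library left out 2119 to 2565 were higher and 1588 to 2091 lower. Plain library totals and TPM moved the median log2 difference of all genes by 0.11 and 0.14. At 1 TPM or more in place of 1 CPM 18 names remained, and with each library left out 24 to 28. Members 5-fold away in PMC-303 were 1 with an offset of 1 CPM, 2 on TPM and 4 to 7 with each primary culture left out; in PMC-306 they were 3, 3 and 8. These last alternatives were chosen after seeing the data. Col27a1 was also called lower without female 3 and against male cultures alone. The replicate block for female against male cultures called 0 members and 5 genes in all. Nothing in the labels says that a number marks a pair. Same-numbered cultures deviated from their sex means with correlations of 0.40, -0.22 and 0.28, and differently numbered ones with -0.59 to 0.42. So few values cannot show whether a number marks a pair. The cause of these changes was not tested.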
